A study of Homo sapiens with 24 samples.

Results

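Of the 24 3′ RNA-sequencing libraries of the series, 16 carried one or the other of a pair of siRNAs against ZBED2, and these were compared with each other. The siRNAs are called siZBED2-1 and siZBED2-2 (numbers 1 and 2 in the labels), with 8 libraries each, chosen by the labels alone. They were given to RT112, an established bladder cancer line of the luminal papillary class, and to SCaBER, an established bladder line of the basal/squamous class, each with or without the siFOXA1 siRNA (number 1 in the labels). Line and siFOXA1 status made 4 backgrounds, each with 2 libraries per ZBED2 siRNA, and the 2 replicates are named in the labels as experiment batches. The other 8 libraries had no ZBED2 siRNA: 4 had siControl (number 2 in the labels) and 4 had siFOXA1 alone. All cells were transfected with a lipid reagent, and no library came from untransfected cells. Nothing in the sources used here says that the replicates came from separate cultures beyond the batch number, so the p-values measure the spread between these libraries. In bulk RNA, fewer cells of a kind and less RNA of a gene per cell cannot be told apart.

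An siRNA is a short RNA duplex that guides the silencing complex, built around an Argonaute protein, to messages it pairs with. A close match leads to cleavage of the message, and a match to the first bases of the guide, the seed, can be enough to lower other messages. A pair of siRNAs against 1 gene therefore shares the intended target but not the guide sequence. ZBED2 is a zinc-finger protein of a family derived from transposases, and is known as a transcriptional repressor that acts on interferon-responsive genes in pancreatic cancer. FOXA1 is a pioneer transcription factor of luminal urothelium.

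Total counts per library lay between 4425404 and 6119210 in the 16 libraries (median 4990881), with 14121 to 15592 genes detected. The line labels fitted their markers: the summed level of 10 luminal urothelium markers was 4659 to 5702 CPM (counts scaled to 1000000 per library) in RT112 and 51.7 to 109.8 in SCaBER, and that of 8 basal and squamous markers 414 to 842 against 3234 to 4725. COL3A1 and PDGFRA of fibroblasts, CD3E, MS4A1 and LYZ of leukocytes and CLDN5 of endothelium had no count in any of the 16 libraries. The RT112 siZBED2-2 replicate 2 library stood apart, with 8.22% of its counts from the mitochondrial genome. The other 3 libraries of its background with a ZBED2 siRNA had 16.0% to 16.9%. The RT112 siControl libraries had 17.8% (replicate 1) and 12.2% (replicate 2). Across the 16 libraries the mitochondrial share was 1.55 percentage points higher with siZBED2-1 (exact permutation within backgrounds, two-sided, p = 0.134). Counts of 14233 genes were tested with edgeR's quasi-likelihood test, with the background as a block, and a gene was called at a Benjamini-Hochberg adjusted p under 0.05. All fold changes below are on the log2 scale and are siZBED2-1 over siZBED2-2 unless stated otherwise.

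The target itself was lower with siZBED2-1. ZBED2 (ENSG00000177494; GRCh38.p14, chromosome 3, 111592900 to 111595346) had 12 and 0 counts in RT112 with siZBED2-1 and 38 and 36 with siZBED2-2. In SCaBER it had 12 and 40 counts with siZBED2-1 and 48 and 100 with siZBED2-2, and in SCaBER with siFOXA1 20 and 8 against 49 and 57. In RT112 with siFOXA1 it had 9 and 7 counts against 12 and 4. The groups were separated in 3 of the 4 backgrounds and overlapped in RT112 with siFOXA1, where the siFOXA1 libraries without a ZBED2 siRNA were themselves at 5.46 and 1.52 CPM. Over the 16 libraries the ZBED2 difference was -1.51 (SE 0.45, edgeR adjusted p = 0.0318), and an exact permutation of the siRNA labels within backgrounds gave p = 0.00926 (12 of 1296 assignments, two-sided). The call was lost in each of 5 fits without 1 library, which gave ZBED2 adjusted p between 0.0518 and 0.0762: RT112 siZBED2-2 replicate 1, SCaBER siZBED2-1 replicate 1, SCaBER siZBED2-2 replicate 2, SCaBER siFOXA1+siZBED2-1 replicate 2 and SCaBER siFOXA1+siZBED2-2 replicate 2. Against the 8 libraries without a ZBED2 siRNA, ZBED2 was at -2.47 with siZBED2-1 (edgeR adjusted p = 5.8e-05) and at -1.01 with siZBED2-2 (adjusted p = 0.21). Both of these comparisons used the same 8 reference libraries.

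**Figure D1:**
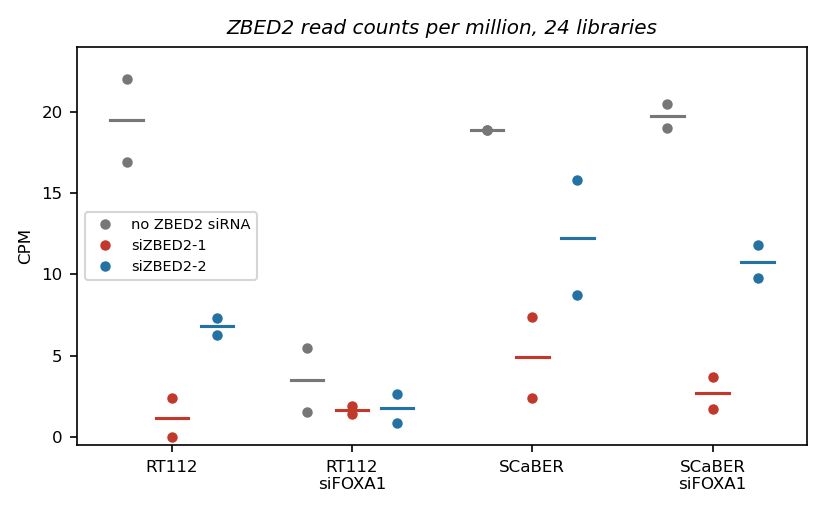
ZBED2 levels (CPM) in all 24 libraries. Points are libraries, bars the mean of 2 replicates, and colours the siRNA arm. The higher SCaBER library with siZBED2-2 and no siFOXA1 was at 15.8 CPM, close to the 18.9 CPM of both siControl libraries. Its replicate lay lower.

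The other fixed genes differed less. FOXA1, the second target of the experiment, had 45.6 and 57.0 CPM in the RT112 siZBED2-1 libraries and 48.7 and 31.5 CPM in those of siZBED2-2. With siFOXA1 the RT112 values were 4.04 and 11.4 against 15.7 and 10.0 CPM. Its groups overlapped in both, and over the 16 libraries the FOXA1 difference was -0.48 (SE 0.33, adjusted p = 0.437). STAT2, a signal transducer of interferon, was higher with siZBED2-1 by 0.46 (SE 0.13, adjusted p = 0.0254) and was separated in 3 of 4 backgrounds, with an overlap in SCaBER at 41.6 and 42.5 against 42.1 and 35.1 CPM. Its call was lost with all 24 libraries in 1 fit, and also without the RT112 siZBED2-2 replicate 2 library. IRF9, which binds DNA together with STAT2, was at 1.14 (SE 0.38, adjusted p = 0.0582), and with the replicate number as a block the same IRF9 difference had adjusted p = 0.0366. CD274, which encodes the checkpoint ligand PD-L1, was at 0.17 (SE 0.31, adjusted p = 0.821).

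Far more genes than the target separated the siRNAs. Of the 14233 genes, 1315 were called (9.24%), 627 higher with siZBED2-1 (4.41%) and 688 lower (4.83%). Of these, 96 were at least 2-fold higher and 105 at least 2-fold lower. The genes described next are the stricter set, called and also separated in every background, so that both siZBED2-1 libraries lay on the same side of both siZBED2-2 libraries 4 times over. There were 225 such genes higher with siZBED2-1 (1.58% of genes tested, median 0.53) and 329 lower (2.31%, median -0.68). At least 2-fold differences were found in 27 of the higher and 69 of the lower genes. Without the RT112 siZBED2-2 replicate 2 library the 2 counts were 1044 called and 546 called and separated. Scaled by library size alone, 35.7% of the called genes were higher in place of 47.7%, and 28.1% of the separated genes in place of 40.6%. On the deposited TPM values with limma these shares were 21.2% and 15.9%, so the balance of directions depends on the scaling. ZBED2 was not in the separated set.

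The gene with the smallest p was TMEM14B, a membrane protein gene (ENSG00000137210; GRCh38.p14, chromosome 6, 10747759 to 10759774). In RT112, TMEM14B was at 12.9 and 10.9 CPM when siZBED2-1 was given and at 67.6 and 75.0 CPM when siZBED2-2 was. With siFOXA1 the RT112 libraries had 9.35 and 16.4 against 71.1 and 64.1 CPM. In SCaBER the values were 12.9 and 24.2 against 156 and 129 CPM, and with siFOXA1 24.6 and 21.6 against 123 and 123. All 8 siZBED2-1 libraries lay below all 8 siZBED2-2 libraries, and the TMEM14B difference was -2.58 (SE 0.14, edgeR adjusted p = 1.45e-12). The neighbouring family member TMEM14C (chromosome 6, 10723070 to 10731127) was in the set too, at -1.56 (SE 0.17, adjusted p = 4.45e-07), and reads that both genes could share were counted as the deposited table has them.

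YWHAH, the eta member of the 14-3-3 adaptor proteins, had 5.35 and 5.10 CPM in RT112 with siZBED2-1 against 52.3 and 54.6 with siZBED2-2. In SCaBER YWHAH was at 27.1 and 24.6 against 99.1 and 116 CPM. The gap was narrower in RT112 with siFOXA1 (16.8 and 10.5 against 38.6 and 30.02 CPM), and the YWHAH difference over all libraries was -2.08 (SE 0.18, adjusted p = 1.61e-08). Of the 6 other 14-3-3 genes tested none was called lower, while SFN (0.42) and YWHAG (0.40) were called higher. ACLY, which makes cytosolic acetyl-CoA for lipid synthesis, was at 31.3 and 34.8 against 142 and 142 CPM in RT112 and at 158 and 140 against 295 and 323 CPM in SCaBER with siFOXA1, the backgrounds with its widest and narrowest gaps. Its difference was -1.61 (SE 0.11, adjusted p = 2.66e-10). RAB12, a small GTPase of membrane traffic, was at -1.60 (SE 0.14, adjusted p = 1.68e-08), with 22.1 and 20.3 against 116 and 120 CPM in SCaBER.

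The other 8 of the 12 lower genes with the smallest p lay between -1.49 and -1.005. They were FGD5-AS1 (-1.49), a long non-coding RNA; ABHD2 (-1.33), a lipid hydrolase; MAP7D1 (-1.24), related to microtubule-associated proteins; and SNX3 (-1.19), which sorts endosomal cargo. RHOBTB3 (-1.17), CETN3 (-1.13), a centrin of the centrosome, MRPS10 (-1.11), a protein of the mitochondrial ribosome, and CHMP4B (-1.005), a subunit of the membrane-scission complex ESCRT-III, made up the rest. Each of the 12 was also called in all 4 backgrounds on its own, and 24 lower and 5 higher genes met that condition, the higher ones being EIF3J, IL1A, PCDH1, DHRS7 and ATP6V0E1.

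The 12 higher genes with the smallest p had smaller differences, from 0.69 to 1.76. EIF3J, a loosely bound subunit of the translation initiation factor eIF3 (ENSG00000104131; GRCh38.p14, chromosome 15, 44537147 to 44562803), was at 264 and 270 CPM in RT112 with siZBED2-1 against 139 and 158 with siZBED2-2. In SCaBER EIF3J was at 536 and 474 against 149 and 183 CPM. The 2 groups of each background did not overlap, as the choice of these genes required. The EIF3J difference was 1.09 (SE 0.10, adjusted p = 1.49e-08). IL1A, the cytokine interleukin-1 alpha, was at 146 and 140 against 30.04 and 36.04 CPM in SCaBER and at 6.54 and 6.21 against 2.32 and 1.05 CPM in RT112, a low level. Its difference was 1.76 (SE 0.16, adjusted p = 2e-08). GDF15, a stress-induced cytokine, was at 42.2 and 33.9 against 13.7 and 5.07 CPM in RT112 and differed by 1.74 (SE 0.21, adjusted p = 2.21e-06).

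The remaining 9 higher genes were DHRS7 (1.04), a dehydrogenase; CCDC80 (0.97), of the extracellular matrix; NORAD (0.95), a long non-coding RNA that binds Pumilio proteins; PCDH1 (0.91), a protocadherin; and SLFN5 (0.88), of the Schlafen family. CLDN1 (0.86), a tight-junction claudin, PPIF (0.80), the mitochondrial cyclophilin, TENT5A (0.74), a poly(A) polymerase, and ATP6V0E1 (0.69), a subunit of the vacuolar proton pump, completed them.

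**Figure D2:**
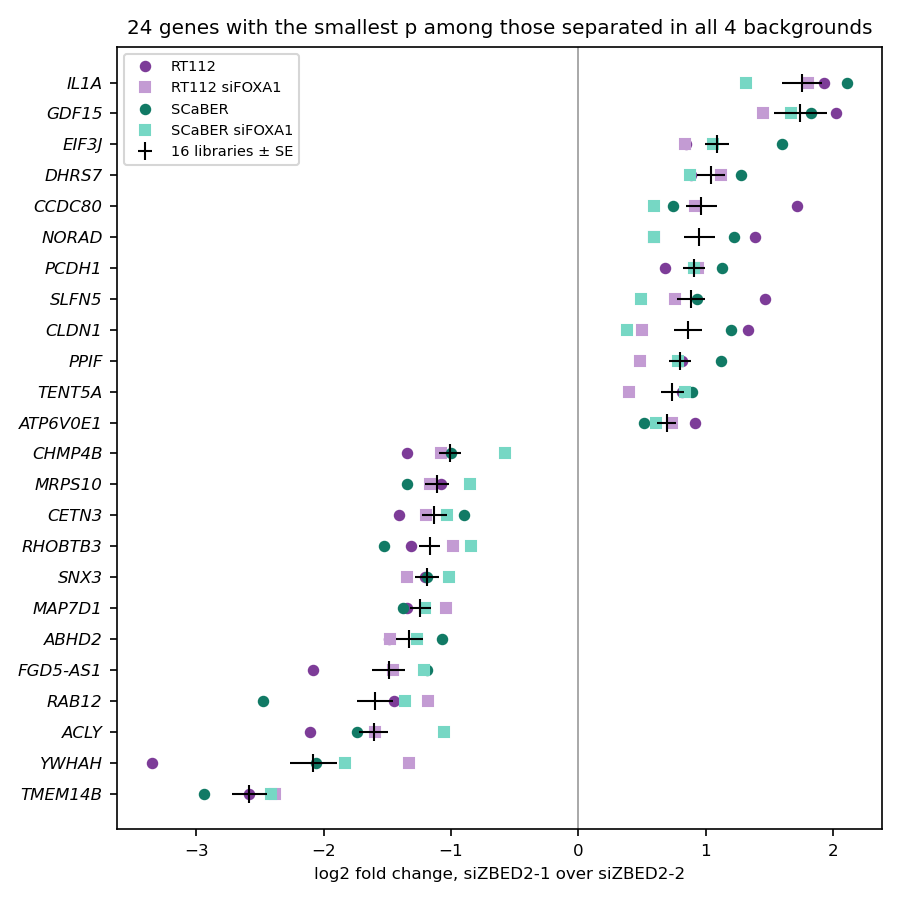
Log2 fold change, siZBED2-1 over siZBED2-2, of the 24 genes with the smallest p (12 per direction) among those separated in all 4 backgrounds. Symbols are the 4 single backgrounds and crosses the fit over 16 libraries with its SE. TMEM14B is at -2.58 and IL1A at 1.76. No gene has a background on the other side of 0, which the choice of separated genes built in.

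The libraries without a ZBED2 siRNA show which arm lay apart. Against them, siZBED2-1 had 560 genes called higher (3.78% of 14823 tested) and 544 lower (3.67%), and siZBED2-2 had 61 higher (0.412%) and 44 lower (0.297%). The reference libraries are the same 8 in both comparisons. Of the 329 separated lower genes, 205 were called lower with siZBED2-1 against the reference libraries. With siZBED2-2, 11 of them were called higher and 1 lower. Of the 225 separated higher genes, 106 were called higher with siZBED2-1, and 21 were called lower with siZBED2-2. Both sets were chosen by the difference between these same arms, so the order of the arms was built into these counts. The shares over all genes given above were not subject to that choice.

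TMEM14B was at -2.50 with siZBED2-1 and 0.08 with siZBED2-2 against the reference (adjusted p = 3.1e-14 and 0.89). YWHAH (-2.28 and -0.22) and ACLY (-1.57 and 0.03) had the same order. For EIF3J it was the other way round, with 0.20 for siZBED2-1 (adjusted p = 0.19) and -0.89 for siZBED2-2 (adjusted p = 1.3e-07). In SCaBER the EIF3J reference libraries were at 355 and 373 CPM, between both arms. PPIF (0.01 and -0.79), TENT5A (0.02 and -0.72) and NORAD (0.23 and -0.72) were also called with siZBED2-2 alone. PCDH1 (0.44 and -0.47), DHRS7 (0.43 and -0.63) and CCDC80 (0.47 and -0.51) were called in opposite directions with the 2 siRNAs. IL1A was called with siZBED2-1 alone (1.47 and -0.30), as were GDF15 (1.26 and -0.53) and CLDN1 (1.02 and 0.11). A call in one comparison and not in the other was not taken as a difference between them, since the difference itself is the one tested over the 16 libraries.

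**Figure D3:**
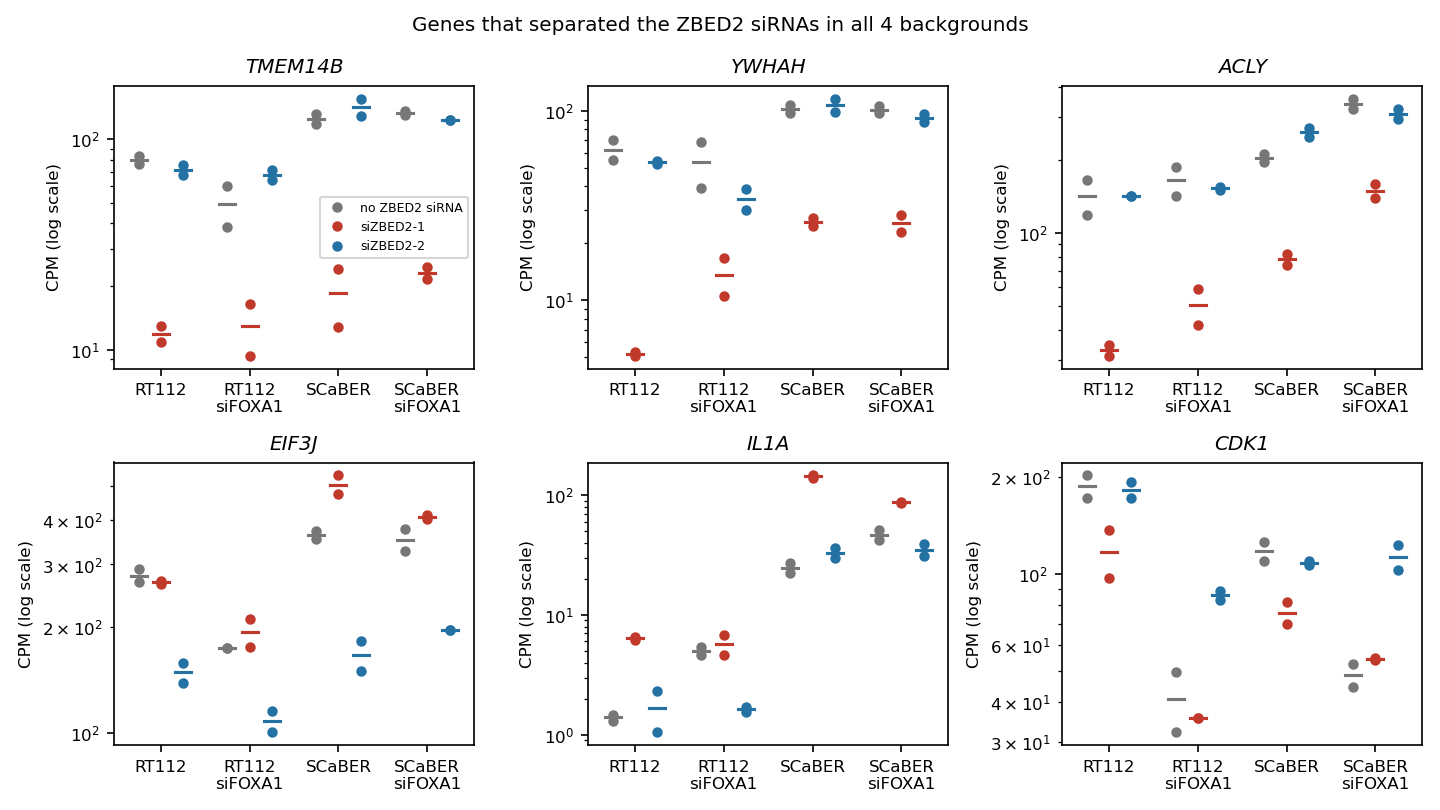
Levels (CPM, log axes) of 6 genes in all 24 libraries, by background. Points are libraries, bars means of 2 replicates. The siZBED2-1 libraries lie apart for TMEM14B, YWHAH and ACLY, and the siZBED2-2 libraries for EIF3J, whose siZBED2-2 values stay between 101 and 196 CPM.

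Among the gene lists, those of cell division held the most calls. Beside each list stand all genes tested, of which 9.24% were called, and 1.58% were separated higher and 2.31% lower. Of 36 tested genes that act in mitosis, 31 were called lower with siZBED2-1 and none higher (86.1%). In all 4 backgrounds 22 were separated (median -0.64, beside 0.02 over all genes tested). Of 35 DNA replication genes, 24 were called lower (68.6%), none higher, and 14 were separated (median -0.58). By background the mitosis median was -0.72 in RT112, -1.05 in RT112 with siFOXA1, -0.33 in SCaBER and -0.59 in SCaBER with siFOXA1. The mitosis median was negative in each of the 8 same-numbered pairs of libraries, from -1.27 to -0.30. In the same order of backgrounds, 15, 22, 3 and 2 mitosis genes were called lower (41.7%, 61.1%, 8.33% and 5.56%). For DNA replication the counts were 12, 13, 0 and 1 (34.3%, 37.1%, 0% and 2.86%). Of all genes tested 8.12%, 2.28%, 2.21% and 0.45% were called, so most of these single-background calls were in RT112. Not past the threshold were BUB1B, BUB3, PLK4, CENPA and CDC25C in the first list and, in the second, 11 genes that include CCNE1 (0.48).

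NUSAP1, a spindle-binding protein gene, had the smallest p in the mitosis list. In RT112 with siFOXA1, NUSAP1 had 13.4 and 7.10 CPM under siZBED2-1 and 39.1 and 31.3 under siZBED2-2. In SCaBER with siFOXA1 the values were 13.7 and 16.5 against 42.2 and 47.7 CPM, and the NUSAP1 difference over 16 libraries was -1.28 (SE 0.15, adjusted p = 1.86e-06). CDK1, the kinase that drives entry into mitosis, was at 137 and 96.9 against 172 and 193 CPM in RT112, and at 35.7 and 35.7 against 88.3 and 83.2 CPM with siFOXA1 (-0.86, SE 0.11, adjusted p = 4.48e-06). In SCaBER with siFOXA1 CDK1 was at 54.1 and 54.8 against 103 and 123 CPM. CKS2 (-0.87) and TOP2A (-0.73), and in DNA replication MCM4 (-0.59), RRM2 (-0.84), MCM5 (-0.68) and MCM2 (-0.71), were the next by p. MCM2, MCM4 and MCM5 are subunits of the replicative helicase, and RRM2 is the small subunit of ribonucleotide reductase.

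The reference libraries stood in a different place with and without siFOXA1. CDK1 had 172 and 202 CPM with siControl in RT112, close to siZBED2-2, and 49.5 and 32.2 CPM with siFOXA1 alone, close to siFOXA1 with siZBED2-1. NUSAP1 had 69.2 and 71.8 CPM with siControl in RT112 and 21.2 and 18.3 CPM with siFOXA1 alone, between the 2 arms. Over both, the median of the mitosis list was -0.37 with siZBED2-1 and 0.26 with siZBED2-2 against the reference. For siZBED2-1, 9 genes were called lower (beside 3.67% of all genes), and for siZBED2-2, 1 was called higher (beside 0.412%). NUSAP1 was that gene, at -0.68 with siZBED2-1 and 0.63 with siZBED2-2 (adjusted p = 0.0051 and 0.041).

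Promoter windows of 2 mitosis genes and of 1 gene of the integrated stress response are shown because members of those lists moved together. They were picked by smallest p among separated genes whose windows hold every element marked, so the marked elements were a condition of the choice. The windows run from 250 bases before to 50 after the RefSeq start (GRCh38.p14). In NUSAP1 and CDK1 capitals mark the CHR element (TTTGAA or TTCGAA) and the CCAAT box (CCAAT), which are known from promoters of late cell-cycle genes, and in CHAC1 the C/EBP-ATF element (TGATGNAA). Each was searched on both strands, so that a reverse match reads as its complement.
NUSAP1 (chr15:41332631-41332930, plus strand): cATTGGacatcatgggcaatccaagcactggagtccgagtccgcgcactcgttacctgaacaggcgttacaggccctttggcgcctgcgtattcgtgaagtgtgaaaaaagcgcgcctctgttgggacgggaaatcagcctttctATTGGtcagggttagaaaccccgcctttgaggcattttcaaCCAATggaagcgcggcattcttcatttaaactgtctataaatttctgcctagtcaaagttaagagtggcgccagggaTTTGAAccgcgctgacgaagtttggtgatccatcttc
CDK1 (chr10:60778081-60778380, plus strand): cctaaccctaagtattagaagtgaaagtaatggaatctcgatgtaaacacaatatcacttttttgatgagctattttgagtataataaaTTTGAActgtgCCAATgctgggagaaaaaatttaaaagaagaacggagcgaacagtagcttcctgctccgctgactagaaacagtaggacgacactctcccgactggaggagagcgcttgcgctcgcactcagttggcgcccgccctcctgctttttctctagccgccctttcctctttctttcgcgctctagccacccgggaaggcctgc
CHAC1 (chr15:40953221-40953520, plus strand): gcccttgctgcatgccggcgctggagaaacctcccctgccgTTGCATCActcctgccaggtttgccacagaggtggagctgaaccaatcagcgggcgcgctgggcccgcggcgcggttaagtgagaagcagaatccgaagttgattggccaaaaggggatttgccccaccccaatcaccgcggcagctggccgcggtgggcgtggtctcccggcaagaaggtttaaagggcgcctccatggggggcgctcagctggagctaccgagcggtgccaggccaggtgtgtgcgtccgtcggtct
Of 29 mitosis genes with a window, 22 held a CHR element (75.9%), beside 16.6% of all 27305 promoters of the same length, and 21 held a CCAAT box (72.4%, beside 35.7%). Of 31 replication genes with a window, 2 held a CHR element and 16 an E2F site, searched as TTTCCCGC or TTTGGCGC (51.6%, beside 2.31% of all promoters). Of 22 genes of the stress list described next, 4 held the C/EBP-ATF element (18.2%, beside 3.67%). Among the 7 stress genes separated higher, CHAC1 was the 1 that held it (14.3%). The CCAAT box was not particular to the mitosis genes. It was also held by 19 of the 31 replication genes (61.3%) and 17 of the 22 stress genes (77.3%). A match in these letters is a description of the window and not evidence of binding.

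Of 24 tested genes of the integrated stress response and of protein folding, 11 were called higher with siZBED2-1 and 1 lower. That is 50%, beside 9.24% of all genes, and 12 did not pass the threshold. This response raises translation of the transcription factor ATF4, and the linked unfolded protein response raises chaperones of the endoplasmic reticulum. The list median was 0.40, and 7 of the higher genes were separated in all 4 backgrounds. The separated genes were CALR (0.43), ATF4 (0.53), CHAC1 (1.53), HSP90B1 (0.43), TRIB3 (0.73), XBP1 (0.41) and DDIT3 (0.93). HSPA5, the main chaperone of that compartment, was the gene called lower (-0.44). ATF4 was at 175 and 169 against 104 and 118 CPM in RT112 and at 275 and 334 against 183 and 228 CPM in SCaBER (0.53, SE 0.08, adjusted p = 2.63e-05). CHAC1, a glutathione-degrading enzyme, was at 43.7 and 41.3 against 11.4 and 14.1 CPM in SCaBER with siFOXA1 (1.53, SE 0.23, adjusted p = 7.3e-05), and in RT112, at 5.35 and 4.66 against 4.63 and 0.70 CPM, it barely separated. CALR, a calcium-binding chaperone and the most abundant of the 4 genes with the smallest p, was at 1116 and 1042 against 775 and 838 CPM in RT112 (0.43, SE 0.06, adjusted p = 8.28e-06). Against the reference libraries 10 members were called higher and 1 lower with siZBED2-1, beside 3.78% and 3.67% of all genes. With siZBED2-2 none was called, where 0.412% of all genes were called higher and 0.297% lower, so few calls could be looked for in this list.

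Of 33 basal and squamous marker genes, 10 were called higher with siZBED2-1 and none lower (30.3%, beside 9.24% of all genes, median 0.31). Separated in all backgrounds were 4, COL17A1 (0.68), KRT17 (0.37) and CD44 (0.35) among them. COL17A1, a collagen of the hemidesmosome, was at 1677 and 1929 against 1112 and 1218 CPM in SCaBER and at 15.7 and 21.1 against 5.02 and 7.87 CPM in RT112 (adjusted p = 0.000646). Among 19 luminal and umbrella-cell markers 4 were called higher and 2 lower (31.6%), with a median of 0.04. Without the RT112 siZBED2-2 replicate 2 library none was called higher. Of 14 luminal transcription factors 1 was called higher, ELF3 (0.30, not called without that library), and 2 lower, PPARG (-0.55) and RXRA (-0.93). These are 21.4% of that list, whose median was -0.08. PPARG and RXRA encode a nuclear receptor pair, and RXRA was separated in all backgrounds.

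Interferon-stimulated effector genes, among which the known targets of ZBED2 in pancreatic cells lie, gave fewer calls than the cell-division lists. Of 40, 7 were called higher with siZBED2-1 and none lower (17.5%, beside 9.24% of all genes), with a median of 0.37. IFITM2 (1.02) was the 1 separated in all 4 backgrounds, where 1.58% of all genes were separated higher. GBP1 (0.61), DTX3L (0.47), IFIT2 (0.96), MX2 (0.88), SP110 (0.38) and USP18 (0.69) were the other 6. GBP1, an interferon-induced GTPase, was at 97.1 and 107 against 41.5 and 59.8 CPM in RT112 and at 88.0 and 78.7 against 80.1 and 63.4 CPM with siFOXA1, where the groups overlapped. Against the reference libraries the list median was -0.12 with siZBED2-1 and -0.44 with siZBED2-2. In each, 1 gene was called lower and none higher, where 3.67% and 0.297% of all genes were called lower. In RT112 without siFOXA1, the background of the library with the low mitochondrial share, the list median was 0.67 and 10 of 40 members were called (25%, beside 8.12% of all genes in that background). In SCaBER 1 was called (2.5%, beside 2.21%), and none in RT112 or SCaBER with siFOXA1, where 2.28% and 0.45% of all genes were called. Without that library the median in RT112 was 0.95 with 10 members called (beside 5.01% of all genes), and 6 were called over the remaining libraries. The lone siZBED2-2 library left in RT112 is there assumed to vary like the other groups. With the replicate number as a block and all 16 libraries, 18 members were called in RT112 without siFOXA1 (45%, beside 9.98% of all genes). The difference between backgrounds was not tested for the list.

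Of 25 chemokine, cytokine and NF-kB genes, 4 were called higher and 2 lower (24%, median 0.30). IL1A, IL1B (0.93) and NFKBIA (0.31) were separated in all backgrounds, and CXCL1 (-0.51) and TNFAIP2 (-0.45) were lower. Of 13 genes of the RNA interference machinery 1 was called (7.69%, near the 9.24% of all genes), DICER1 (-0.60), the nuclease that makes microRNAs. DICER1 was at 88.2 and 98.4 against 180 and 181 CPM in RT112 and at 101 and 121 against 127 and 122 CPM in SCaBER. Double-stranded RNA sensors and adaptors gave 1 lower call among 16 (6.25%; MAVS, -0.23), which was lost with the replicate number as a block (adjusted p = 0.0663) and without the RT112 siZBED2-2 replicate 2 library, and 12 MHC class I presentation genes gave none. Of 22 interferon receptor, JAK, STAT and IRF genes, IFNAR1 (-0.52) was called lower and STAT2 higher, the latter not without that library.

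Of 5 ZBED family genes tested, ZBED2 was the 1 called (20%, beside 9.24% of all genes), and their median was -0.28. The lists described next had medians between -0.08 and 0.19, and their shares of calls are to be read against the same 9.24%. Of 74 cytosolic ribosomal protein genes 3 were called higher, RPL27A (0.44), RPLP0 (0.21) and RPS15A (0.31), and of 31 proteasome genes 2, PSMD13 (0.32) and PSMC4 (0.26). Of 13 transcripts of the mitochondrial genome 3 were called higher (23.1%, median 0.19), beside the difference in mitochondrial share given above. Without the RT112 siZBED2-2 replicate 2 library that median was 0.08. Of 23 NRF2 antioxidant genes 4 were called higher and 1, ME1 (-0.90), lower (21.7%). The NRF2 median was -0.22 in RT112, -0.11 in RT112 with siFOXA1, 0.23 in SCaBER and 0.24 in SCaBER with siFOXA1. Of 28 hypoxia and glycolysis genes 3 were called lower, HIF1A (-0.31), PGK1 (-0.33) and PGAM1 (-1.14), and without the RT112 siZBED2-2 replicate 2 library 1 was. The backgrounds of the hypoxia and glycolysis list differed in sign too. The median was -0.47 in RT112 with 9 called lower, -0.29 in RT112 with siFOXA1 with none called, 0.24 in SCaBER with 2 called higher and 0.04 in SCaBER with siFOXA1 with none called, and the pooled median was -0.08. Of 22 p53 target genes 2 were called higher, GDF15 and SESN2 (0.56), and CDKN1A, the cell-cycle inhibitor p21, was not past the threshold (0.29, adjusted p = 0.0905). Cholesterol synthesis gave 1 call in each direction among 20 genes, with HMGCS1 (0.32) the higher one. Mesenchymal and matrix genes gave 2 in each among 37, with MMP13 (-1.48) and TIMP3 (-0.60) lower and MMP1 (1.01) and CDH1 (0.31) higher. The PGAM1 and CDH1 calls were lost with the replicate number as a block (edgeR adjusted p = 0.0515 and 0.0628). MMP13 was lower than the reference libraries with both siRNAs (-2.79 and -1.33, adjusted p = 6.5e-08 and 0.011).

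**Figure D4:**
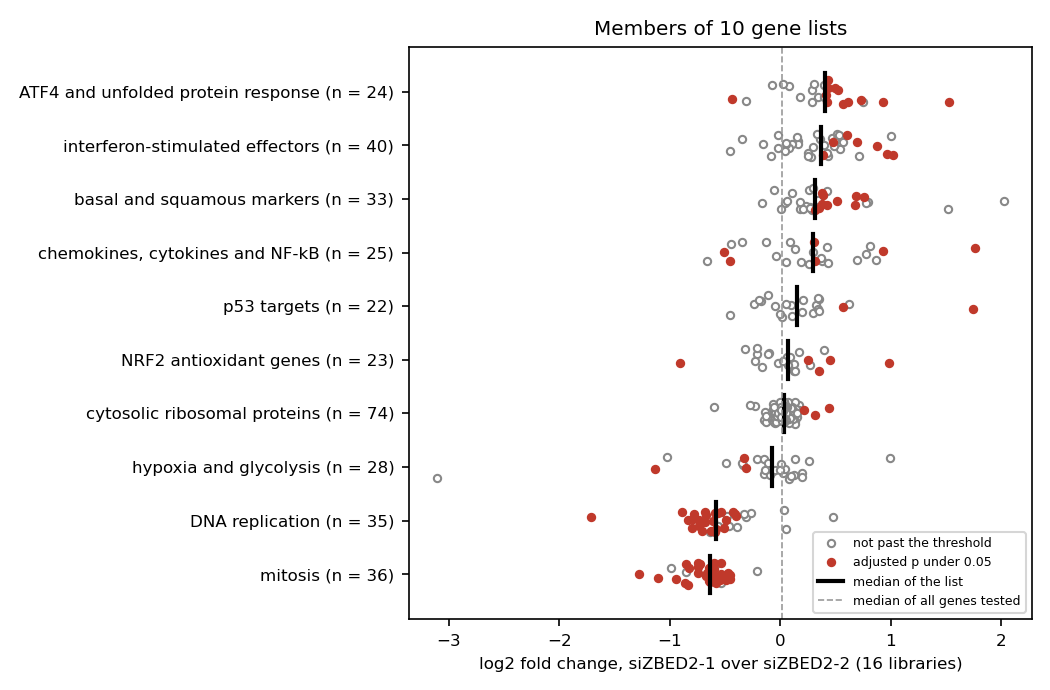
Log2 fold change, siZBED2-1 over siZBED2-2, of the members of 10 gene lists in the fit over 16 libraries. Points are genes, filled where the adjusted p is under 0.05, thick bars are list medians and the dashed line the median of all genes tested (0.02). The mitosis and DNA replication lists lie at -0.64 and -0.58.

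The backgrounds gave unequal numbers of calls on their own, each from 2 libraries against 2. In RT112 without siFOXA1 1156 genes were called (8.12%), in RT112 with siFOXA1 324 (2.28%), in SCaBER without it 314 (2.21%) and in SCaBER with it 64 (0.45%). With the replicate number as a block the last count was 149. Single libraries moved these counts. Without RT112 siZBED2-1 replicate 2 the first was 652, and without RT112 siFOXA1+siZBED2-1 replicate 2 or RT112 siFOXA1+siZBED2-2 replicate 2 the second was 149 or 207. Without any 1 of its own 4 libraries the third lay between 110 and 139 and the fourth between 23 and 37, and without 1 library of the RT112 groups the fourth reached up to 125. Across the 14233 genes, the differences of any 2 backgrounds, which share no library, had a Spearman rho between 0.145 and 0.282. These values run over genes and not over samples, and carry no test.

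The difference between the siRNAs depended on the line for 189 genes (1.33%), more positive in RT112 for 113 and in SCaBER for 76, by a test of the difference of differences. With the replicate number as a block 310 genes were called. KRT81, a hair keratin, had the smallest p. In RT112 it had 164 and 87.6 CPM under siZBED2-1 against 17.8 and 6.12 under siZBED2-2, and with siFOXA1 539 and 619 against 145 and 81.3 CPM. In SCaBER the KRT81 groups overlapped, at 1141 and 1190 against 1494 and 1057 CPM. The difference of differences was 2.97 (SE 0.26, edgeR adjusted p = 1.8e-07). GPX2, a glutathione peroxidase, had the reverse pattern. It was a little lower with siZBED2-1 in RT112 (174 and 182 against 212 and 188 CPM, -0.17, adjusted p = 0.67) and was higher with siZBED2-1 in SCaBER (12.9 and 19.0 against 6.19 and 7.59 CPM) and in SCaBER with siFOXA1 (12.0 and 11.0 against 3.19 and 1.87 CPM), with a GPX2 difference of differences of -1.84 (adjusted p = 0.0001). CYR61 (1.63), a matricellular target of YAP, and MAP2 (2.09), a microtubule-associated protein, were the other 2 with the smallest p. Of the 554 separated genes 21 had a called dependence on the line.

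Dependence on siFOXA1 was found for 25 genes (0.176%), 10 more positive and 15 more negative with siFOXA1, and for 58 with the replicate number as a block. Their number was 15 without SCaBER siFOXA1+siZBED2-1 replicate 1, 42 without RT112 siFOXA1+siZBED2-2 replicate 2, 48 without RT112 siFOXA1+siZBED2-1 replicate 1 and 50 without RT112 siZBED2-2 replicate 1. Of the 554 separated genes 5 were among the 25. TXNIP, which binds thioredoxin and limits glucose uptake, turned direction. In RT112 it was at 824 and 1078 CPM with siZBED2-1 against 521 and 557 with siZBED2-2, and with siFOXA1 at 177 and 155 against 494 and 410. In SCaBER TXNIP was at 215 and 166 against 97.2 and 93.3 CPM, and with siFOXA1 at 66.7 and 69.7 against 83.9 and 72.0. The TXNIP difference of differences was -1.73 (SE 0.15, adjusted p = 1.4e-07). DAB2, an endocytic adaptor, kept its direction in all 4 backgrounds but not its size. In RT112 it was at 33.5 and 40.1 against 1.93 and 0.88 CPM, the second siZBED2-2 library near the level of 3 counts, and with siFOXA1 at 29.8 and 42.8 against 13.7 and 20.0 CPM (difference of differences -2.20, adjusted p = 0.0038). With siZBED2-1 the 8 DAB2 libraries lay between 29.8 and 47.2 CPM in both lines. GPRC5A (-0.87), a retinoic acid-induced receptor, and ANKRD1 (-1.48), another target of YAP, were the next by p.

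**Figure D5:**
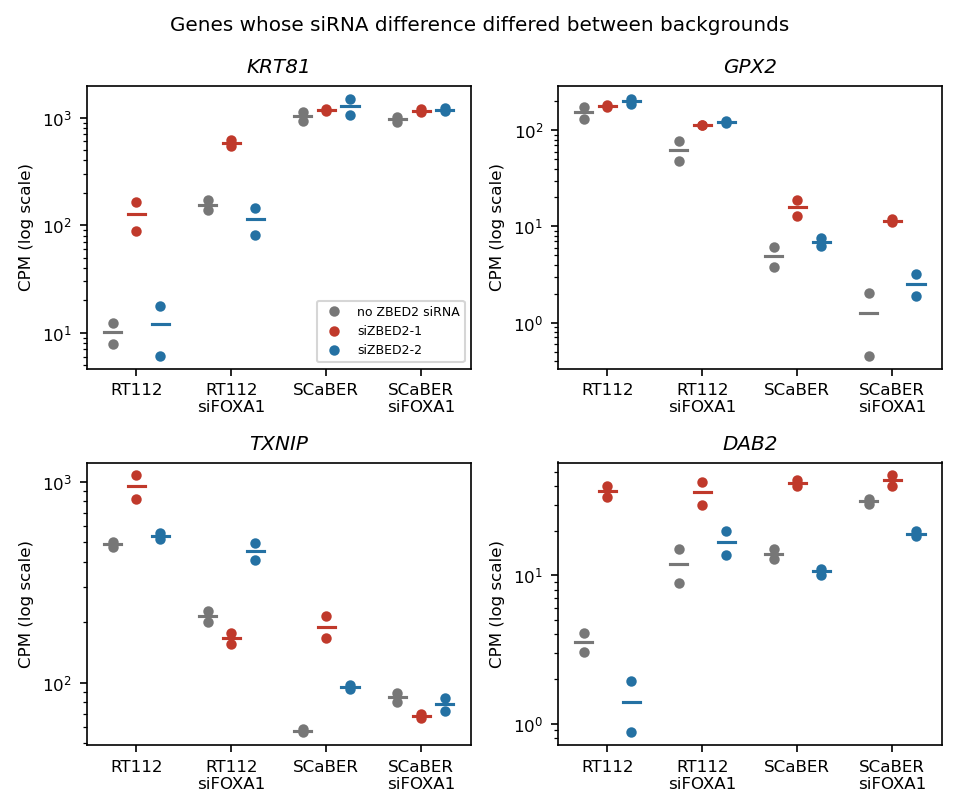
Levels (CPM, log axes) of 4 genes whose siRNA difference varied with line or siFOXA1 status, in all 24 libraries. Points are libraries, bars means of 2 replicates. KRT81 separates the siRNAs in RT112 and not in SCaBER, and TXNIP is higher with siZBED2-1 without siFOXA1 and lower with it.

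A further 8 genes had been called for both ZBED2 siRNAs in both lines in an earlier analysis of these libraries, so their shared direction is not independent evidence. Between the siRNAs their median difference was 0.01 and 1 of them, RPLP0, was called. Against the reference libraries their medians were 0.56 with siZBED2-1 and 0.54 with siZBED2-2, with 8 and 6 called higher (beside 3.78% and 0.412% of all genes).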

How the data were processed

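The libraries were made by the authors with the QuantSeq FWD 3′ kit from oligo-dT primed RNA after reverse transfection with Lipofectamine RNAiMax. Per the deposited pipeline settings, raw-qc 2.1.0 with TrimGalore 0.6.2 trimmed the reads and STAR 2.6.1a (in the labels too) aligned them to hg38 with GENCODE 29. The authors deposited raw counts per gene and TPM values, whose tool is not given in the sources used here. No poly-A trimming was set, and gene lengths bear on TPM although 3′ counts do not scale with length, so counts were used and deposited TPM served as an alternative (limma 3.58.1, pseudocount 1). The counts were tested here with edgeR 4.0.16 in R 4.3.3 (TMM, quasi-likelihood, filterByExpr with minimum count 10 and total 15). The model had 4 line by siFOXA1 blocks and the siRNA. Block contrasts and differences of differences came from a fit with 8 group means, and comparisons with the other 8 libraries from a fit of all 24. The study's methods name DESeq2, used here in version 1.42.0 as an alternative. Standard errors are the fold change over the root of F. CPM values use TMM-scaled library sizes.

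A gene counted as separated in a background when both siZBED2-1 libraries lay on the same side of both siZBED2-2 libraries in log2 CPM (prior count 2). The named genes are the 12 separated genes of smallest p per direction, ZBED2, FOXA1, STAT2, CD274 and IRF9, the 4 of smallest p in each difference of differences, and up to 4 per gene list; 2 genes that this rule picks are not reported here, and others are named where counts or lists single them out, after their values were seen. The members and gene lists were chosen with earlier results of these data known. The calls of the gene lists and of IFIT2 without the RT112 siZBED2-2 replicate 2 library, and of the lists with the replicate block, were added after seeing the data. Tests were checked on simulated counts. The replicate number is an experiment batch in the labels, which pairs the libraries, and the blocked fit is an alternative; same-numbered groups' deviations correlated at 0.0284 on average in RT112 and 0.0182 in SCaBER, over 0.1 in 0 of 6 group pairs in each. No 2 libraries agreed within sampling noise (lowest chi-square per gene 6.23). Counts below 3 in a library, 0.49 to 0.68 CPM, are at the floor, for counting error only. Gene positions and promoters are from RefSeq (GRCh38.p14), matched by symbol. The siRNA sequences were not used here.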

Additional observations from a re-analysis of the deposited data

Results flagged for a closer look

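These genes were taken up because a test of the difference of differences, with edgeR's quasi-likelihood fit and Benjamini-Hochberg adjustment over all genes, passed the threshold. For line, the siRNA difference in RT112 minus that in SCaBER was 2.97 for KRT81, 2.09 for MAP2, 1.76 for ANKRD1, 1.63 for CYR61, 1.59 for IFIT2, 1.32 for DAB2, 0.97 for COL17A1 and 0.73 for GPRC5A, so that these were more positive in RT112. It was -1.84 for GPX2, -0.83 for DICER1, -0.75 for LDHA, -0.71 for TXNIP, -0.53 for TIMP3 and -0.48 for HIF1A. For siFOXA1, the difference with it minus that without it was -2.20 for DAB2, -1.73 for TXNIP, -1.48 for ANKRD1, -0.87 for GPRC5A and -0.82 for CLDN1.

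IFIT2, an interferon-induced gene, had 51.1 and 43.01 CPM in RT112 under siZBED2-1 against 11.4 and 1.92 under siZBED2-2. In SCaBER the values were 137 and 190 against 147 and 133 CPM. The 1.92 CPM was that of the RT112 siZBED2-2 replicate 2 library, the one with the low mitochondrial share, and without it the IFIT2 difference was 2.04 in RT112 (edgeR adjusted p = 0.000152) in place of 2.85, and the difference between the lines 1.19 (adjusted p = 0.00796) in place of 1.59.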

How the results depend on the processing

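Over all 16 libraries, the count of called genes kept within 1.5 times under other scalings, filters, tools, the replicate block and each left-out library (1042 to 1263 without 1 library), and was 701 in SCaBER alone, 676 without and 310 with siFOXA1 alone, and 552 and 470 in experiment batches 1 and 2 alone, where fewer libraries entered. The separated genes numbered 546 to 630 without 1 library; 1141 called genes had the same sign in all backgrounds, and 29 were called in each. Dependence on line gave 296 genes with DESeq2, 346 without the low-count filter, 310 with the replicate block, 22 on TPM, and 147 to 263 without 1 library; dependence on siFOXA1 gave 68, 93, 58, 2, and 15 to 50. Single backgrounds gave, for RT112 with siFOXA1, 90 on TPM; for SCaBER, 480 with DESeq2 and 67 on TPM; for SCaBER with siFOXA1, 168 with DESeq2, 10 on TPM, 185 without the filter and 149 with the replicate block. Without 1 library they gave 652 to 1342 in RT112, 149 to 402 in RT112 with siFOXA1, 110 to 390 in SCaBER and 23 to 125 in SCaBER with siFOXA1. DESeq2 called 267 genes for siZBED2-2 against the reference libraries, in place of 105. Scaled by library size, 70.4% of the siZBED2-2 calls were higher in place of 58.1%.

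The ZBED2 difference was -1.30 in RT112 alone, -1.37 and -1.91 in batches 1 and 2 alone, -1.81 without and -1.13 with siFOXA1 alone (edgeR adjusted p = 0.471, 0.183, 0.158, 0.101 and 0.47, with fewer libraries), -1.73 to -1.28 without 1 library, and -1.61 with the replicate block (adjusted p = 0.0339). CD274 lay between -0.0067 (without RT112 siFOXA1+siZBED2-2 replicate 2) and 0.36 without 1 library, and turned to -0.096 in SCaBER alone and -0.098 with siFOXA1 alone, and KRT81 to -0.10 in SCaBER alone. Of 99 named genes that were called, 93 stayed so with the replicate block, 96 with DESeq2 and 58 on TPM. The block lost MAVS, PGAM1, CYP1A1, CDH1, UPK2 and KRT6B. Among these 99 and the fixed genes it changed no other call than that of IRF9. Other list members changed too, with 9 interferon-stimulated effectors called in place of 7 and 30 mitosis genes in place of 31. Of all genes tested 8.34% were called with the block, in place of 9.24%. The causes were not tested. Depth limits low genes: 3 counts are 0.49 to 0.68 CPM.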

Other observations

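Cytosolic aminoacyl-tRNA synthetases, which charge tRNAs with amino acids, were listed after AARS, GARS and TARS had been seen among the higher genes, so the list has no test. Of 20 members tested 5 were called higher with siZBED2-1 and 2 lower (35%, beside 9.24% of all genes), with a median of 0.04. AARS (0.57), GARS (0.53), TARS (0.39) and CARS (0.66) were higher and DARS (-0.69) lower in all 4 backgrounds. AARS was at 361 and 317 CPM with siZBED2-1 against 199 and 171 CPM with siZBED2-2 in SCaBER, where siControl had 223 and 218 CPM.

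Among the 21 separated higher genes that were called lower with siZBED2-2 against the libraries without a ZBED2 siRNA, 6 are named here, chosen after their values were seen and with no count of their function over all genes. Beside EIF3J these are DOHH, which makes the hypusine of eIF5A (-1.73 with siZBED2-2 and -0.40 with siZBED2-1 against the reference), SRP19 of the signal recognition particle (-1.12 and 0.02), CDC123, an assembly factor of eIF2 (-0.80 and -0.06), and the splicing factor SF3B1 (-0.41 and 0.16). RCC1, which loads Ran with GTP, was at -0.87 and -0.04.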
